A study of Mus musculus with 24 samples.

Results

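The genes described here build the machinery that shortens, decaps and degrades messenger RNA, a list of 44 genes picked by name: 10 of the CCR4-NOT complex, Pan2 and Pan3, 13 of decapping, Xrn1 and Xrn2, Pabpc1 and Pabpc4, 6 of nonsense-mediated decay, 7 of the RNA exosome and the adaptors Tob1 and Tob2. All 44 were found among 54446 gene identifiers, and all 44 were among the 16090 genes with enough counts to be tested in the Input libraries. RNA came from CD11b+ myeloid cells of MC38 tumours, a colon carcinoma line grown under the skin of male and female mice aged 8 to 10 weeks. The 24 libraries form 8 groups of 3 replicates, one Input and one m6A IP group for each genotype and treatment. Every mouse carried floxed Ythdf2 alleles. WT mice had no Cre, and in cKO mice Cre was expressed from the Lyz2 (LysM) locus, which is active in myeloid cells and not in this population alone. Tumours received 1 dose of 20 Gy (IR) or no radiation (Ctrl, called untreated below), and cells were collected 3 days later. The study's methods name a sham treatment for mice that were not irradiated. Cells of 5 mice were pooled for each replicate, stated for irradiated mice with floxed alleles, and the replicates are called technical where the assay is described and biological where the peaks are, so SDs, SEs and p-values here measure the spread between libraries.

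Most messenger RNAs are degraded from their ends. Deadenylation comes first: PAN2-PAN3 and then CCR4-NOT remove the poly(A) tail, which is coated by the binding proteins PABPC1 and PABPC4. The deadenylated transcript is then decapped by DCP2 with its activators and digested by the exonuclease XRN1 from its 5′ end, or it is digested by the exosome from its 3′ end. Nonsense-mediated decay feeds transcripts with a premature stop codon into the same enzymes. YTHDF2 binds transcripts that carry N6-methyladenosine (m6A) and recruits CCR4-NOT to them. The comparisons below ask how irradiation and the loss of Ythdf2 changed the transcripts of this machinery, and whether these transcripts themselves carry m6A.

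Libraries held 65180075 to 83661576 gene counts in the Inputs and 68846321 to 86421888 in the IPs, and no member had fewer than 427 counts in any Input. The gene chosen for deletion went against its label. Ythdf2 stood at 96.8 ± 1.23 CPM (counts scaled to library size, with TMM factors over the 12 Inputs; SD, n = 3 here and below) in WT Ctrl and at 178 ± 6.05 in the Inputs labelled cKO Ctrl. Gene counts do not show which exons were read. Lyz2 was low in both Inputs labelled cKO, at 299.8 ± 3.95 CPM in cKO Ctrl against 20586 ± 294 in WT Ctrl. In the irradiated IPs its order was turned, with 89.6 ± 1.30 CPM (TMM over 24 libraries) for WT IR and 19700 ± 159 for cKO IR by label. IP results after irradiation are therefore given as the average over both genotypes, which an exchange of these labels would not alter, or by label only. The myeloid markers Itgam, Csf1r, Ly6c2, Cd14, Fcgr3, Adgre1 and Ccr2 were detected in all groups and summed to 3369 to 5090 CPM (unscaled) in the Inputs. T cell markers summed to at most 2.81 CPM there, B cell markers to at most 1.15 and fibroblast markers to at most 0.575. Epithelial or carcinoma markers (5 genes) summed to at most 8.05 CPM in the Inputs and 128.7 in the IPs, where Cdh1 alone reached 128. In the Inputs endothelial markers summed to at most 3.72 CPM and NK cell markers to at most 0.239. Neutrophil markers (5 genes) summed to 1536 to 1628 CPM in WT Ctrl, 667 to 683 in cKO Ctrl, 315 to 354 in WT IR and 295 to 312 in cKO IR. Granulocyte progenitor markers (4 genes) summed to 50.6 to 56.4 CPM in WT Ctrl, 15.9 to 17.6 in cKO Ctrl and at most 0.214 in the irradiated Inputs. Markers of dividing cells (3 genes) summed to 439 to 448 CPM in WT Ctrl and 371 to 382 in cKO Ctrl, against 168 to 173 in WT IR and 152 to 153 in cKO IR. Platelet markers (2 genes) summed to 196 to 206 CPM in the untreated Inputs, 273 to 301 in WT IR and 361 to 372 in cKO IR. The part of these shifts in the changes of the members was not tested. Globin genes (4 genes) summed to 25.3 to 27.9 CPM in WT IR and to at most 0.0669 in the other Inputs. The 3 WT IR Inputs were the least alike of all replicates, and replicates 1 and 2 of that group differed most. In such bulk samples fewer cells of a type and less RNA per cell cannot be told apart.

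The 44 genes together took 0.352 to 0.439% of Input gene counts. Their share was highest in WT IR, at 0.421% ± 0.0199, followed by WT Ctrl at 0.408% ± 0.00742, cKO Ctrl at 0.395% ± 0.00542 and cKO IR at 0.357% ± 0.00426 (SD, n = 3 each). Pabpc1 alone carried a large part of it. Per kilobase of exon in WT Ctrl, Pabpc1 led with 249 CPM, far above Ddx6 (32.4), Lsm4 (30.8), Upf1 (30.6), Xrn2 (29.9) and Cnot8 (25.6). At the other end stood Dcp1b and Pan2, with 1.18 CPM per kilobase each, below Exosc8 (2.56) and Xrn1 (2.68). Related genes were unequal in the same way in every group. Cnot8 exceeded its paralog Cnot7, the other catalytic deadenylase of the Caf1 type, 4.01-fold ± 0.131 per kilobase in WT Ctrl and between 3.91-fold and 4.35-fold in the other group means. Cnot6l stood at 0.640 ± 0.0238 of Cnot6, both being Ccr4-type deadenylases. Dcp1b was at 0.230 ± 0.0166 of Dcp1a, Pabpc4 at 0.0707 ± 0.000441 of Pabpc1 and Pan2 at 0.235 ± 0.0198 of Pan3 in WT Ctrl. Among these ratios that of Tob2 to Tob1 moved most with treatment. It was 0.966 ± 0.0339 in WT Ctrl and 0.948 ± 0.00427 in cKO Ctrl, against 0.760 ± 0.0268 in WT IR and 0.598 ± 0.0257 in cKO IR, and no irradiated library overlapped an untreated library.

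Irradiation shifted the machinery in unlike ways in the 2 genotypes. In WT, 6 of 7 LSM genes and 5 of 7 exosome genes fell while Ddx6, Pabpc1 and Tob1 were among the 6 members that rose. In the Inputs labelled cKO, all 6 nonsense-mediated decay genes, 5 of 10 CCR4-NOT genes and the decapping enzyme Dcp2 fell while Lsm1, Lsm3, Lsm4 and Lsm7 rose. With edgeR's quasi-likelihood test across all genes (Benjamini-Hochberg adjusted p under 0.05), WT IR vs WT Ctrl had 18 called members, 6 higher and 12 lower, where 31.7% of all tested genes were called (14.7% higher and 17% lower). In cKO IR vs cKO Ctrl, 30 members were called, 8 higher and 22 lower, beside 45.6% of all genes (21.8% higher, 23.8% lower). In cKO IR vs WT IR, 36 were called, 14 higher and 22 lower, beside 47.7% (23.9% higher, 23.8% lower). The interaction (change after irradiation in cKO less the change in WT) was called for 30 members, 11 positive and 19 negative, beside 30.2% (15% and 15.2%). The shares over all genes, here and below, include genes kept with 10 counts in 3 libraries. No member had fewer than 427 counts in any Input, and the part of count level in these comparisons, or in those of peaks, was not tested. The median log2 change of the members was −0.05 in WT IR vs WT Ctrl, −0.13 in cKO IR vs cKO Ctrl, −0.12 in cKO IR vs WT IR and −0.16 in the interaction, and the medians over all genes were at most 0.01 in size. The libraries of both groups did not overlap for 23 members in WT IR vs WT Ctrl (39.8% of all genes), 36 in cKO IR vs cKO Ctrl (55.8%) and 33 in cKO IR vs WT IR (52.1%). Changes were small: called changes of at least 1.5-fold were found for 0 members in WT IR vs WT Ctrl (8.51% of all genes) and in cKO IR vs cKO Ctrl (10%) and for 1, Lsm7, in cKO IR vs WT IR (11.6%). No member passed 1 on the log2 scale in any of these Input comparisons, and the values ran from −0.53 to 0.86. The mean of the cKO IR Inputs was the lowest of the 4 groups for 23 of 44 members, against 31.9% of all genes, and the mean of cKO Ctrl was the lowest for 1 member, against 20.8%.

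**Figure D1:**
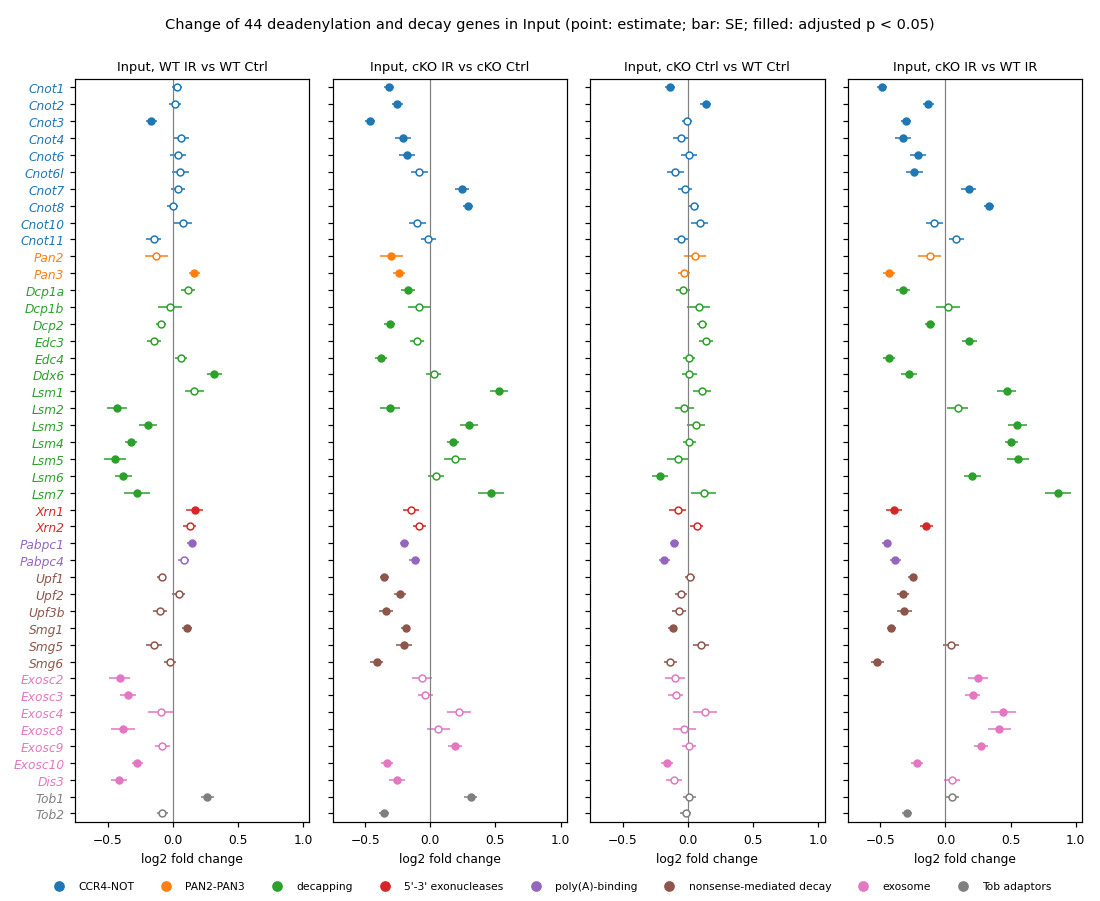
Log2 fold change (x axis) of each of the 44 genes (y axis, coloured by role) in 4 comparisons of Input groups, n = 3 libraries each; points are edgeR estimates, bars are SEs, and filled points passed an adjusted p of 0.05. In the panel of cKO IR vs WT IR the LSM and most exosome genes lie right of 0, up to 0.86, and the nonsense-mediated decay genes other than Smg5 lie left of it.

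Gene length moved with these changes. Among all tested genes, those with under 2 kb of exon had a median log2 change of 0.24 in cKO IR vs WT IR, those of 2 to 5 kb 0.06 and those over 5 kb −0.17. The 5 members under 2 kb (Lsm4, Lsm5, Lsm7, Exosc3 and Exosc4) had a median of 0.51, the 16 members of 2 to 5 kb 0.09 and the 23 members over 5 kb −0.29. Across genes, Spearman's rho between change and exon length was −0.719 over the 44 members and −0.327 over 16084 genes in this comparison, and −0.739 and −0.335 in the interaction. The points share libraries and depth, and genes are not replicates, so no p is given. Mitochondrial genes took 3.54% ± 0.187 of counts in cKO IR and 6.69% ± 0.561 in WT IR (SD, n = 3 each). The part of length, or of RNA quality, in the members' changes was not tested. When the trend of each library with exon length was removed, an alternative chosen after seeing the data, members called went from 6 higher and 12 lower to 3 and 13 in WT IR vs WT Ctrl, from 14 and 22 to 15 and 14 in cKO IR vs WT IR, while the interaction went from 11 and 19 to 11 and 11. In cKO IR vs cKO Ctrl 9 of 30 calls were lost in that way, those of Cnot4, Cnot6, Pan2, Pan3, Dcp1a, Lsm4, Smg1, Smg5 and Dis3. Calls of Ddx6 and Exosc3 were gained there. Cnot4 and Cnot6 are among the 5 CCR4-NOT genes called lower in that comparison. The interaction calls lost in that way were those of Cnot1, Cnot4, Pan3, Dcp1a, Dcp2, Xrn1, Ddx6, Smg1, Exosc2 and Exosc3, and Cnot7 and Dis3 were gained. Interaction calls of 6 LSM genes, Edc4, Pabpc1, Pabpc4, Exosc8 and Exosc9 and of 4 nonsense-mediated decay genes (Upf1, Upf2, Upf3b and Smg6) were among those that kept sign and threshold.

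**Figure D2:**
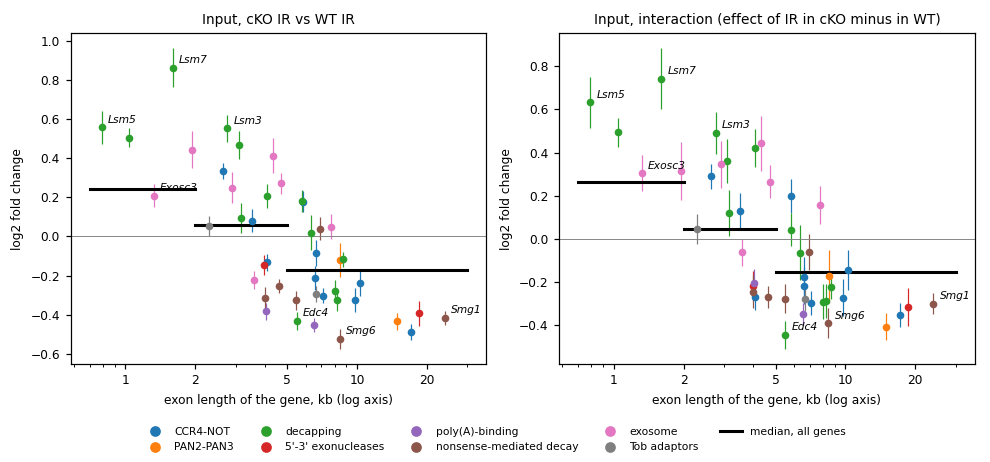
Log2 fold change in Input (y axis; points with SE bars, coloured by role) against the exon length of each of the 44 genes (x axis, kb, log axis), for cKO IR vs WT IR and for the interaction; black lines are the medians of all tested genes under 2 kb, from 2 to 5 kb and over 5 kb. Lsm5 and Lsm7 lie above 0 and above the median of all genes under 2 kb. Smg1, the longest member, lies below 0 and below the median of all genes over 5 kb, a class that also holds much shorter genes. With the length trend removed Smg1 had the opposite sign in both comparisons.

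CCR4-NOT, the main deadenylase, had 6 genes lower and 2 higher of 10 in cKO IR vs WT IR, and of the lower ones Cnot4, Cnot6 and Cnot6l lost their call with the length trend removed. CNOT1, the scaffold on which the complex is built, stood (CPM) at 254, 239 and 254 in WT Ctrl, 241, 267 and 258 in WT IR, 220.2, 234 and 224 in cKO Ctrl and 183, 181 and 181 in cKO IR. All 3 cKO IR libraries lay below the other 9. The difference to WT IR was −0.49 (log2, SE 0.04, adjusted p 2.6e-09) and that to cKO Ctrl −0.32 (SE 0.04, adjusted p 1.1e-06). With the length trend removed the difference to WT IR was −0.09 (adjusted p 0.039). Cnot3, a partner of CNOT2 in the module at the scaffold's carboxyl end, stood (CPM) at 77.3, 79.7 and 76.3 in WT Ctrl, 68.9, 67.6 and 71.8 in WT IR, 76.9, 79.5 and 76.1 in cKO Ctrl and 54.5, 56.8 and 57.6 in cKO IR. It is the only CCR4-NOT gene called in WT IR vs WT Ctrl, at −0.16 (SE 0.04, adjusted p 0.0031), and its fall in cKO, −0.46 (SE 0.04, adjusted p 8.2e-09), was larger by the interaction (−0.30, SE 0.06, adjusted p 0.00036).

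The catalytic subunits of the complex split. Cnot7 and Cnot8 rose in cKO IR vs cKO Ctrl, Cnot8 from 67.8, 69.2 and 71.5 CPM to 86.3, 86.4 and 82.2, a change of 0.29 (SE 0.04, adjusted p 4.8e-06), and Cnot7 by 0.24 (SE 0.05, adjusted p 0.0011). The WT libraries of Cnot8 lay between 64.6 and 68.8 CPM with and without irradiation, so the cKO IR libraries were apart from all others. Its interaction was 0.29 (SE 0.06, adjusted p 0.00053). Cnot6 and Cnot6l were lower in cKO IR than in WT IR, by −0.21 and −0.24 (SE 0.06 and 0.07, adjusted p 0.0076 and 0.0047), but their libraries overlapped, and with the length trend removed neither was called (adjusted p 0.16 and 0.99). Cnot10 and Cnot11, which bind the scaffold's amino end, were not called in any of the 5 Input comparisons.

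Pan3, which encodes the subunit that brings the nuclease PAN2 to the poly(A) tail, was called higher in WT and lower in cKO, but neither call held with the length trend removed. Pan3 stood at 76.5, 74.2 and 75 CPM in WT Ctrl and 80.5, 87.3 and 85.5 in WT IR, against 72.7, 73.7 and 74.6 in cKO Ctrl and 67.1, 60.8 and 59.3 in cKO IR. It rose by 0.17 in WT (SE 0.05, adjusted p 0.0074) and fell by −0.24 in cKO (SE 0.05, adjusted p 0.0002), and the interaction was −0.41 (SE 0.06, adjusted p 6.5e-05). That interaction came to −0.11 (adjusted p 0.19) with the length trend removed, and the gene has 14.96 kb of exon. Pan2 was called in cKO IR vs cKO Ctrl only, at −0.30 (SE 0.09, adjusted p 0.0076). That call was lost without cKO IR replicate 1 (adjusted p 0.056) and with the length trend removed.

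Decapping genes did not change alike. The LSM proteins, of which LSM1 to LSM7 form the ring that binds the shortened tail and promotes decapping, had transcripts that fell in WT for 6 of 7 genes and rose in cKO for 4 of 7. Of these calls, the fall of Lsm3 in WT (−0.19, adjusted p 0.045) was lost in 5 of 6 fits that left out a library, with the replicate block (adjusted p 0.057), in a fit of the 6 libraries alone (0.081) and with the length trend removed (0.062). The rise of Lsm4 in cKO (0.17, adjusted p 0.0048) came to −0.06 (adjusted p 0.33) with the length trend removed. Lsm7 stood (CPM) at 12.6, 14.5 and 13.3 in WT Ctrl, 13.7, 9.4 and 10.3 in WT IR, 14.1, 14.1 and 15.7 in cKO Ctrl and 20.6, 19.9 and 20.1 in cKO IR. The last group lay above all other libraries, while WT IR overlapped WT Ctrl through its replicate 1. Its difference between cKO IR and WT IR was the largest of any member, 0.86 (SE 0.10, adjusted p 4.5e-07), with an interaction of 0.74 (SE 0.14, adjusted p 0.00037). The fall in WT, −0.28 (SE 0.10, adjusted p 0.042), was lost in 4 of 6 fits that left out a library, with an adjusted p of up to 0.21 without WT IR replicate 2.

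Lsm5 showed the largest fall in WT. It stood at 11.7, 14.2 and 13.6 CPM in WT Ctrl and 10.9, 8.9 and 9.3 in WT IR, a change of −0.44 (SE 0.08, adjusted p 0.00036). In cKO Ctrl it was at 12.7, 12.8 and 12 and in cKO IR at 13.6, 14.9 and 14.2 CPM, a change that was not called (0.19). The interaction was 0.63 (SE 0.12, adjusted p 0.00035), and 0.35 (adjusted p 0.034) with the length trend removed. Lsm3 rose in cKO, from 19.5 ± 1.46 CPM in cKO Ctrl to 24 ± 0.912 in cKO IR (0.30, SE 0.07, adjusted p 0.0012). It stood at 16.4 ± 1.25 CPM in WT IR, a difference between the irradiated groups of 0.55 (SE 0.07, adjusted p 1.7e-06). Lsm4 went from 25.6 ± 0.624 to 36.3 ± 0.639 CPM between these groups, 0.51 on the log2 scale (SE 0.05, adjusted p 3.4e-08). Lsm1, the subunit that sets this ring apart from the nuclear one, differed from the others: it was not called in WT and rose from 10.6, 9.9 and 9.6 CPM in cKO Ctrl to 15.1, 14.4 and 13.8 in cKO IR. That rise of 0.53 (SE 0.07, adjusted p 3.3e-06) was the largest of any member in this comparison. Lsm2 fell in both genotypes, by −0.43 in WT (SE 0.08, adjusted p 0.00019) and −0.31 in cKO (SE 0.08, adjusted p 0.0022), and Lsm6 fell in WT by −0.38 (SE 0.06, adjusted p 7.6e-05), with an interaction of 0.42 (SE 0.09, adjusted p 0.00096).

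Of the other decapping genes, Dcp1a, Dcp2 and Edc4 fell in cKO IR vs cKO Ctrl, and Dcp1b, Edc3 and Ddx6 were not called. Edc3, an enhancer of decapping, was called higher between the irradiated groups, cKO against WT, as the LSM genes called there were, with 19.4, 20 and 20.9 CPM against 17.8, 17.4 and 18 (0.18, SE 0.06, adjusted p 0.011). Dcp1a lost its call in cKO with the length trend removed. Dcp2, the catalytic subunit, was at 74.8, 72.7 and 76.0 CPM in cKO Ctrl and 62.0, 59.8 and 58.0 in cKO IR, a fall of −0.31 (SE 0.04, adjusted p 1.3e-06). Edc4, the scaffold that joins DCP2 to its activator DCP1, stood at 46.4, 44.9 and 44.7 CPM in cKO Ctrl and 34.3, 34.2 and 36.1 in cKO IR, with 47.0, 45.7 and 48.3 in WT IR. Its interaction, −0.44 (SE 0.07, adjusted p 2.9e-05), was the largest negative value among the members and was −0.37 (adjusted p 0.00031) with the length trend removed. Ddx6, an RNA helicase that links CCR4-NOT to decapping, rose in WT from 258, 256 and 268 CPM to 284, 368 and 322, by 0.32 (SE 0.06, adjusted p 0.00023). It was not called in cKO, where all 6 libraries lay between 257 and 273 CPM. The interaction, −0.29 (SE 0.08, adjusted p 0.01), was lost with the length trend removed (−0.14, adjusted p 0.22). Dcp1b was called in none of the 5 Input comparisons.

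**Figure D3:**
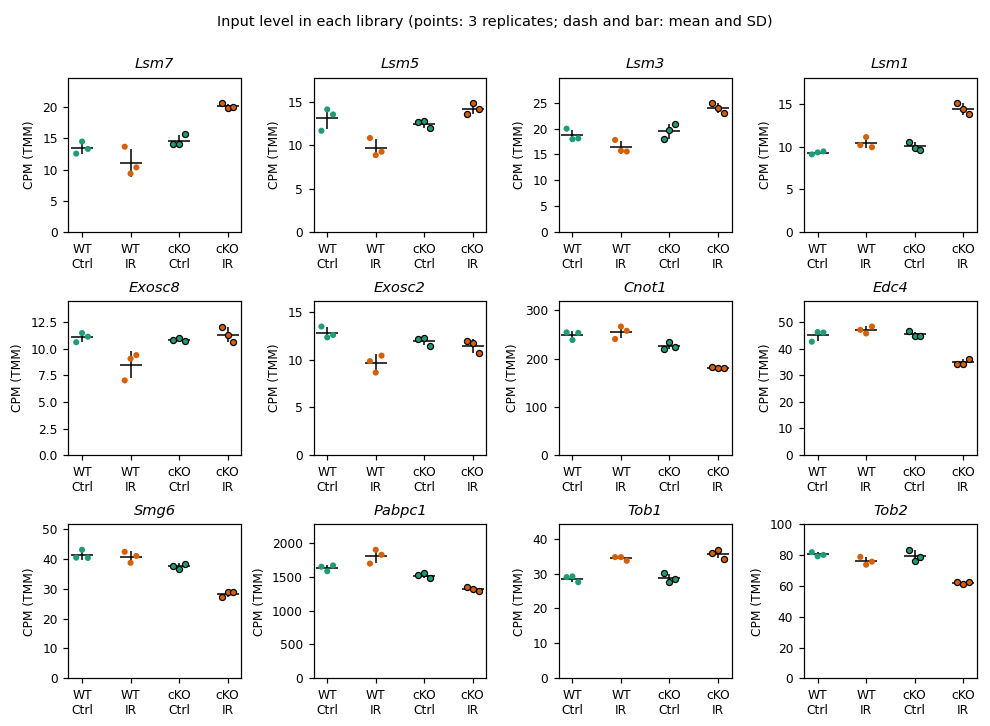
Input level of 12 members (y axis, CPM after TMM scaling, from 0) in each of the 3 libraries of each group (x axis); points are libraries, dashes are means and bars SDs. Lsm7, Lsm3 and Lsm1 are highest in cKO IR, Lsm5, Exosc8 and Exosc2 are lowest in WT IR, and Cnot1, Edc4, Smg6, Pabpc1 and Tob2 are lowest in cKO IR.

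Both 5′-3′ exonucleases and both poly(A)-binding genes were called lower in cKO IR than in WT IR, but neither exonuclease call held under all alternatives. Xrn1, the cytoplasmic exonuclease, was at 49.5, 62.5 and 55.5 CPM in WT IR and 42.5, 42.8 and 42.3 in cKO IR, a difference of −0.39 (SE 0.06, adjusted p 2.6e-05) that came to 0.03 (adjusted p 0.66) with the length trend removed. The gene has 18.6 kb of exon. Xrn2, the nuclear exonuclease, was at 118, 141 and 132 CPM in WT IR and 121, 117 and 115 in cKO IR, so the groups overlapped. Its difference of −0.15 (SE 0.05, adjusted p 0.020) was lost in 4 of 6 fits that left out a library (adjusted p up to 0.11 without WT IR replicate 2) and in a fit of the 6 libraries alone (0.070). Pabpc1 stood (CPM) at 1648, 1580.2 and 1666 in WT Ctrl, 1694, 1897 and 1823 in WT IR, 1520.4, 1552 and 1477 in cKO Ctrl and 1348, 1320.3 and 1292 in cKO IR. WT IR was above and cKO IR below both untreated groups in every library. The rise in WT was 0.15 (SE 0.04, adjusted p 0.0032), the fall in cKO −0.20 (SE 0.04, adjusted p 9.2e-05) and the interaction −0.35 (SE 0.05, adjusted p 2.5e-05), or −0.24 (adjusted p 0.00084) with the length trend removed. Pabpc4 had 77.2, 75.7 and 72.8 CPM in WT IR and 55.5, 58.4 and 59.1 in cKO IR, a difference of −0.38 (SE 0.04, adjusted p 4.8e-07).

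All 6 nonsense-mediated decay genes fell in cKO IR vs cKO Ctrl, from −0.41 for Smg6 to −0.19 for Smg1. With the length trend removed Smg5 (−0.10, adjusted p 0.22) and Smg1 (0.05, adjusted p 0.21) were no longer called there. Before that step 5 of 6 were lower in cKO IR than in WT IR. In WT, Smg1 alone was called, at 0.11 (SE 0.04, adjusted p 0.022), a call that was lost in 4 of 6 fits that left out a library (adjusted p up to 0.0936 without WT IR replicate 2). Smg6, the endonuclease that cuts the target transcript, stood (CPM) at 40.4, 43.0 and 40.3 in WT Ctrl, 42.3, 38.6 and 40.9 in WT IR, 37.7, 36.5 and 38.4 in cKO Ctrl and 27.2, 28.8 and 28.8 in cKO IR. The cKO IR libraries were below all others. The difference to WT IR was −0.53 (SE 0.05, adjusted p 3.1e-08) and the interaction −0.39 (SE 0.07, adjusted p 0.00022). Upf1, the helicase at the centre of the pathway, fell in cKO from 142, 143 and 144 CPM to 110.2, 113 and 112, by −0.35 (SE 0.04, adjusted p 8.2e-08), with an interaction of −0.27 (SE 0.05, adjusted p 0.00038). Smg1, the kinase that phosphorylates UPF1, had 239, 263 and 252 CPM in WT IR and 186, 191 and 188 in cKO IR, −0.42 on the log2 scale (SE 0.04, adjusted p 7.2e-09). With 23.98 kb of exon it is the longest member, and with the length trend removed this difference had the opposite sign, 0.09 (adjusted p 0.026).

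The exosome was lower in irradiated WT cells. Of its 7 genes, 5 fell and 0 rose in WT IR vs WT Ctrl, and 2 fell and 1 rose in cKO IR vs cKO Ctrl. Exosc2, Exosc3 and Exosc8 encode parts of its inactive core, Dis3 and Exosc10 its nucleases. Exosc8 went from 10.6, 11.5 and 11.1 CPM in WT Ctrl to 7.0, 9.1 and 9.4 in WT IR, a fall of −0.38 (SE 0.09, adjusted p 0.0029), while cKO Ctrl stood at 10.9, 11.0 and 10.7 and cKO IR at 12.1, 11.3 and 10.6. Its interaction was 0.44 (SE 0.13, adjusted p 0.012), and 0.46 (adjusted p 0.013) with the length trend removed. Exosc2 went from 13.5, 12.3 and 12.6 CPM to 9.8, 8.6 and 10.4 in WT, a fall of −0.41 (SE 0.08, adjusted p 0.00038), against 12, 11.7 and 10.7 in cKO IR. Its interaction of 0.34 (SE 0.11, adjusted p 0.022) was lost in 5 of 12 fits that left out a library, with an adjusted p of up to 0.063.

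The nucleases of the exosome fell in both genotypes, Dis3 with less support in cKO. Dis3 went from 21.8, 23.0 and 22.5 CPM in WT Ctrl to 15.7, 18 and 16.9 in WT IR, by −0.41 (SE 0.06, adjusted p 2.7e-05), and from 20.2, 21.1 and 21.1 in cKO Ctrl to 16.6, 18.6 and 17.3 in cKO IR, by −0.25 (SE 0.06, adjusted p 0.0021). Exosc10, the nuclear nuclease, fell by −0.27 in WT (SE 0.05, adjusted p 8.7e-05) and −0.33 in cKO (SE 0.05, adjusted p 4.2e-06). The fall of Dis3 in cKO was not called with the length trend removed (−0.14, adjusted p 0.077). The interaction was called for neither gene, but for Dis3 it was with the length trend removed (0.30, adjusted p 0.013), as was its difference between cKO IR and WT IR (0.20, adjusted p 0.011). Exosc9, a core subunit, rose in cKO by 0.19 (SE 0.05, adjusted p 0.0073), and its interaction was 0.26 (SE 0.08, adjusted p 0.012).

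Tob1 and Tob2, adaptors that bring CCR4-NOT to PABPC1 and to specific transcripts, diverged after irradiation. Tob1 rose in WT from 29.0, 29.2 and 27.5 CPM to 34.7, 34.7 and 33.7, by 0.27 (SE 0.05, adjusted p 0.0003), and in cKO from 30.04, 27.7 and 28.5 to 36.0, 36.8 and 34.2, by 0.31 (SE 0.05, adjusted p 2.8e-05). It was the only member called higher in both genotypes, and its interaction was not called (0.05). Tob2 was not called in WT (−0.08) and fell in cKO from 83.4, 76.4 and 78.5 CPM to 62.4, 61.4 and 62.2, by −0.36 (SE 0.04, adjusted p 4e-07), with an interaction of −0.28 (SE 0.06, adjusted p 0.00086).

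Without irradiation the members were called between the genotypes at about the share of all genes. In cKO Ctrl vs WT Ctrl 7 members were called (15.9%), 1 higher (Cnot2) and 6 lower (Lsm6, Pabpc4, Exosc10, Cnot1, Smg1 and Pabpc1), beside 15.7% of all genes (8.05% higher, 7.61% lower). None of these reached 1.5-fold, as 3.59% of all genes did, and the libraries did not overlap for 16 members (36.3% of all genes). The largest was that of Lsm6, with 25.9, 25.4 and 28.3 CPM in WT Ctrl and 22.8, 24 and 21.7 in cKO Ctrl, a difference of −0.21 (SE 0.06, adjusted p 0.021). Every one of the 7 calls was lost in at least 1 fit that left out a library. The count was 2 without WT Ctrl replicate 1, 6 without WT Ctrl replicate 2 and 1 without WT Ctrl replicate 3. It was 2 without cKO Ctrl replicate 1, 4 without cKO Ctrl replicate 2 and 1 without cKO Ctrl replicate 3. None of these fits called Cnot2 or any other member higher.

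Antibody enrichment differed between the roles. IP over Input is a ratio over the whole gene, on the log2 scale of a fit of all 24 libraries, and is relative to the other genes. In WT Ctrl, 17 members were enriched, beside 38.1% of all genes, and 21 were depleted, beside 37.5% (75.5% called either way). In cKO Ctrl the counts were 18 and 20 (37.8% and 36% of all genes, 73.7% either way), and in IR averaged over genotypes 19 and 22 (40.1% and 40.2%, 80.3% either way). The decapping group had 8 of 13 genes enriched in WT Ctrl and the exosome 5 of 7. CCR4-NOT had 1 of 10, and PAN2-PAN3, the exonucleases and the poly(A)-binding proteins had none. These roles also differed in median exon length, with 4.08 kb for decapping and 3.59 kb for the exosome. It was 6.615 kb for CCR4-NOT, 11.7 kb for PAN2-PAN3, 11.3 kb for the exonucleases and 5.28 kb for the poly(A)-binding genes. The part of length in these role counts was not tested.

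Lsm3 was the most enriched member in WT Ctrl. It stood at 21.6, 19.4 and 19.5 CPM (TMM over 24 libraries) in the Inputs and at 101, 101 and 91.7 in the IPs, a ratio of 2.28 (SE 0.06, edgeR adjusted p 6.3e-27). In cKO Ctrl the ratio was 2.23 (SE 0.06). Upf3b, which ties the exon junction complex to UPF2 in nonsense-mediated decay, had 23.6, 23.9 and 23.8 CPM in Input and 105, 102 and 96.3 in IP of WT Ctrl, a ratio of 2.09 (SE 0.05, adjusted p 8.6e-29). Its ratio stayed near that value in cKO Ctrl (2.12, SE 0.05) and in IR averaged over genotypes (2.24, SE 0.03). Exosc8 had 11.4, 12.4 and 12 CPM in Input and 43.0, 43.9 and 40.7 in IP, a ratio of 1.83 (SE 0.07, adjusted p 2.1e-22).

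At the other end, Cnot6l, Edc4, Xrn1, Pabpc1 and Smg1 were the most depleted in WT Ctrl. Edc4 had 45.9, 49.9 and 49.6 CPM in Input and 16.3, 18.5 and 16.1 in IP, a ratio of −1.51 (SE 0.06, adjusted p 7.3e-22). Cnot6l had 72.3, 69.2 and 74.7 CPM against 24.3, 25.4 and 25.5, a ratio of −1.52 (SE 0.07, adjusted p 1e-19). Pabpc1 had a ratio of −1.38 (SE 0.03, adjusted p 3.2e-28). Exon length moved with this ratio too: Spearman's rho across genes was −0.659 over the members and −0.135 over all genes in WT Ctrl, and members over 5 kb had a median of −0.26, against −0.25 for all genes of that length. Members under 2 kb had a median of 0.99, against 0.20 for all genes of that length. The part of length was not tested. With the length trend removed, 20 members were enriched and 17 depleted in WT Ctrl, and Cnot4, Pan2, Dcp2, Ddx6 and Tob2 changed sign.

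After irradiation the ratio of the LSM and exosome genes came down. The change of IP over Input, IR vs Ctrl averaged over genotypes, was called for 32 members, 16 higher and 16 lower, beside 48.4% of all genes (25.3% higher, 23.1% lower). Of the 7 exosome genes 6 were lower and none higher, of the 13 decapping genes 7 were lower and 2 higher, and of the 6 nonsense-mediated decay genes 5 were higher and none lower. Lsm5 moved most, by −1.002 (SE 0.07, adjusted p 6.1e-14). Its IP level was 44.6, 40.7 and 41.4 CPM in WT Ctrl and 38.4, 39.5 and 37.9 in cKO Ctrl, against 17.0, 18.2 and 17.0 in the group labelled WT IR and 18.4, 19.0 and 20.6 in the group labelled cKO IR. The irradiated IPs thus lay below all untreated IPs, while the Inputs of the gene spanned 9.5 to 15.9 CPM over the 4 groups.

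Lsm7 and Lsm3 followed, by −0.97 (SE 0.09, adjusted p 1.5e-11) and −0.96 (SE 0.06, adjusted p 1.2e-15). Lsm3 IPs went from 91.7 to 101 CPM in the 6 untreated libraries to between 48.1 and 57.5 in the 6 irradiated ones. Exosc8 moved by −0.72 (SE 0.07, adjusted p 9e-11), with IPs of 40.7 to 45.3 CPM without and 22.3 to 24.2 with irradiation. Tob2 (0.38, SE 0.04, adjusted p 7.4e-10), Pan3 (0.36, SE 0.05, adjusted p 3.6e-08) and Tob1 (0.31, SE 0.04, adjusted p 1.3e-07) were among the members whose ratio rose, and with the length trend removed Pan3 was no longer called. All genes under 2 kb had a median change of −0.23 here and the 5 members of that length −0.60. With the length trend removed 8 members were higher and 21 lower.

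In untreated cells the ratio was called different between the genotypes at about the same share in the members as in all genes. Between cKO Ctrl and WT Ctrl it was called for 10 members (22.7%), 7 higher and 3 lower, beside 22.6% of all genes (10.1% higher, 12.5% lower). With the length trend removed the counts were 2 and 3, and with the GC trend removed 6 and 5. Tob1 changed most, by 0.47 (SE 0.06, adjusted p 1.6e-07). Its IP level was 40.7, 43.3 and 43.95 CPM in WT Ctrl and 60.9, 59.6 and 59.4 in cKO Ctrl, with no overlap, while its Input levels were 29.7 to 31.5 and 30.2 to 32.7. The next were Lsm7 (−0.34, SE 0.12, adjusted p 0.037), Xrn1 (0.32, SE 0.09, adjusted p 0.0062) and Cnot6l (0.30, SE 0.10, adjusted p 0.025). Lsm7 lost its call in 7 of 12 fits that left out a library (adjusted p up to 0.12), Cnot6l in 4 (up to 0.082), and Xrn1 was no longer called with the length trend removed.

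**Figure D4:**
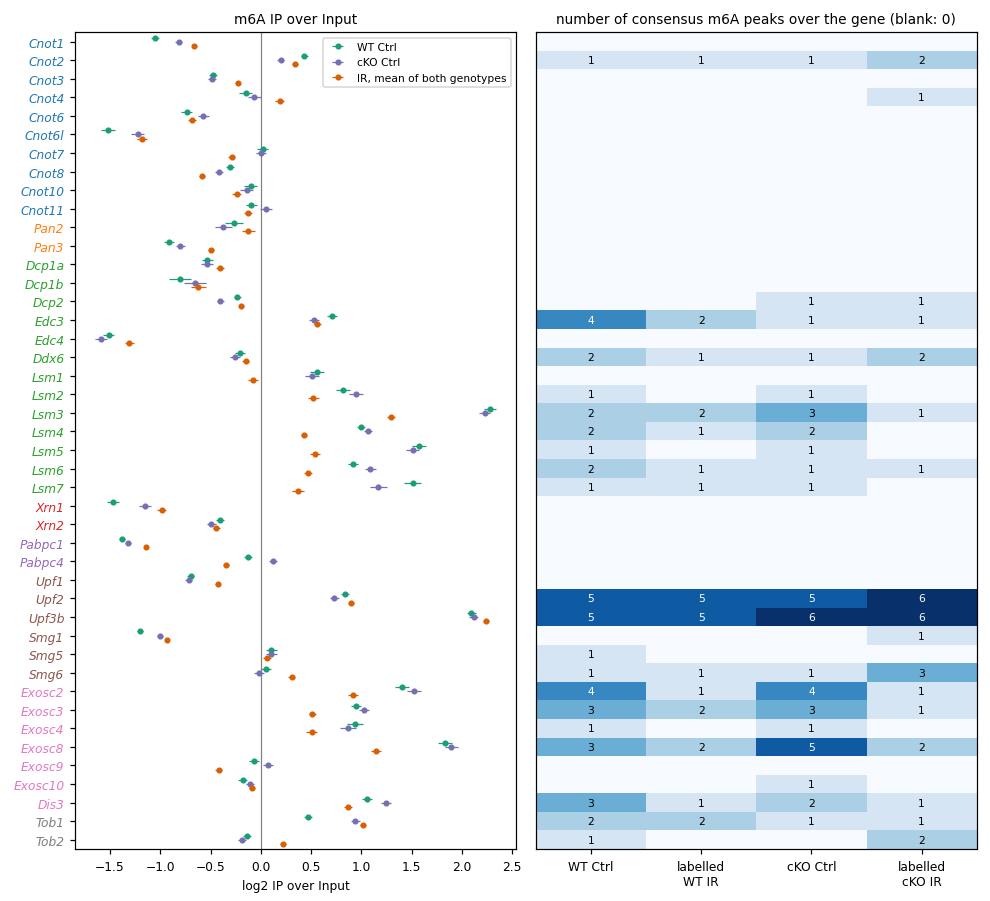
Left, log2 IP over Input (x axis; points with SE bars) of the 44 genes (y axis, coloured by role) in WT Ctrl, cKO Ctrl and IR averaged over genotypes; right, number of consensus m6A peaks over each gene in each IP group. Upf3b and Upf2 hold 5 or 6 peaks in every group, and Lsm2 and Lsm5 have a peak in the untreated groups and none after irradiation, while 8 of 10 CCR4-NOT genes have none in any group.

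Called peaks also differed between the roles. A consensus peak is a region covered by a peak of all 3 IP libraries of a group on the gene's strand, from the authors' calls in single libraries. In WT Ctrl 20 members held one, beside 29.5% of all tested genes, in cKO Ctrl 20 (27.5%), under the label WT IR 15 (24.9%) and under the label cKO IR 17 (22.3%). Over the groups, 24 members were marked in at least 1 group (34.9% of all genes) and 13 in all 4 (17.2%). These 13 were Cnot2, Edc3, Ddx6, Lsm3, Lsm6, Upf2, Upf3b, Smg6, Exosc2, Exosc3, Exosc8, Dis3 and Tob1. Of the 7 exosome genes 6 were marked in at least 1 group, of the decapping genes 9 of 13 and of the nonsense-mediated decay genes 5 of 6. In CCR4-NOT only Cnot2 and, in the group labelled cKO IR, Cnot4 were marked, and no consensus peak lay over Pan2, Pan3, Xrn1, Xrn2, Pabpc1, Pabpc4, Upf1, Edc4, Dcp1a, Dcp1b, Lsm1 or Exosc9. The marked members had a median exon length of 4.08 kb and the others of 6.44 kb.

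The strongest peak of the machinery lay in Lsm3, on the border of intron 1 and exon 2 of 4, with a fold enrichment at the summit of 14.2, 15.1 and 13.3 in the 3 WT Ctrl libraries, 14.3, 13.2 and 15.1 in cKO Ctrl and 11.0, 12.3 and 11.3 in the group labelled WT IR, as the authors' peak caller gave it. In the group labelled cKO IR it was called in 1 library (13.0). Upf3b held peaks in exons 1, 7, 8, 9 and 10 of 10 in WT Ctrl. The peak in exon 1 had folds of 11.9, 12.7 and 10.1 in WT Ctrl and 10.2, 11.3 and 11.6 in cKO Ctrl, and it was called in 2 libraries of the group labelled WT IR (10.9 and 12.8) and in 3 of the group labelled cKO IR (10.3 to 11.8). Upf2 had consensus peaks in its coding exons 2, 3 and 4 of 22 in every group. Of the 45 consensus peaks over members in WT Ctrl, 31 had their summit in coding sequence, 6 in a 3′ UTR, 1 in a 5′ UTR and 7 in an intron of the representative transcript, and 12 were within 200 bases of the stop codon.

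The sequence GGACT, a common form of the m6A consensus, was searched on the transcript strand in the 101 bases around each summit. It lay in 5 of 45 member windows in WT Ctrl (11.1%), against 11.6% of all 13041 windows of that group, and its reverse complement AGTCC lay in 4 of 45 windows and 8.73% of all. Windows of 28 to 42 member peaks in the other groups held GGACT in 9.52 to 15.2%, against 11.2 to 12.1% of all windows. AGTCC lay in 3 of 28 member windows under the label WT IR and 2 of 33 under the label cKO IR. In cKO Ctrl AGTCC lay in 6 of 42 and GGACT in 4. Of all windows in these groups 8.71 to 9.13% held AGTCC. The 4 sites below are shown because they belong to members marked in all 4 groups and lie under a peak of WT Ctrl. They are printed 5′ to 3′ on the strand of the gene, from the GRCm38 genome, with GGACT in capitals.
Upf3b, chrX:37095764-37095792, minus strand: agacagggaccgGGACTatgagagagatc
Exosc8, chr3:54728846-54728874, minus strand: agctaaacttcaGGACTgcatgagtcgag
Edc3, chr9:57749806-57749834, plus strand: aaagaggccagaGGACTgggagcctcagc
Smg6, chr11:74929265-74929293, plus strand: ccaaagactgttGGACTagaggaccgaag
The Upf3b site is in coding exon 9 of 10, under a peak of 4.93-fold to 5.64-fold enrichment. The Exosc8 site is in the last coding exon, 82 bases before the stop codon, under a peak of 3.90-fold to 4.81-fold. The Edc3 site is in the 3′ UTR, 1325 bases after the stop codon (2.84-fold to 4.17-fold), and the Smg6 site is in coding exon 2 of 19 (1.90-fold to 2.93-fold). A match is a description of the letters and does not show which base was modified.

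Changes in the Inputs were set beside marking by a consensus peak in at least 1 group. In WT IR vs WT Ctrl the 24 marked members had 3 higher and 11 lower calls, with a median of −0.14, and the 20 unmarked members had 3 higher and 1 lower, with a median of 0.05. Across all tested genes 670 of 5622 marked genes were higher and 1615 lower (median −0.06), and 1694 of 10468 unmarked genes were higher and 1121 lower (median 0.06). In cKO IR vs cKO Ctrl marked and unmarked members were close, with 4 higher and 12 lower of 24 (median −0.15) and 4 higher and 10 lower of 20 (median −0.13). Over all tested genes the marked and unmarked were apart there too. Of the marked genes 1420 were higher and 1949 lower (median −0.04), and of the unmarked 2089 were higher and 1878 lower (median 0.04). In cKO IR vs WT IR the medians were 0.05 for marked and −0.23 for unmarked members, against 0.09 and −0.07 for all marked and unmarked genes. Marked members were also shorter, as given above, and the part of m6A in these shifts was not tested.

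Other genes of mRNA decay, a list of 69 that are not members and of which 66 were tested, were called in both directions. They include the deadenylation regulators of the BTG, PUM, ZFP36 and TNRC6 families, further exosome, exon junction and decapping genes and Argonaute proteins. In WT IR vs WT Ctrl 14 were higher and 9 lower (34.85% called, beside 31.7% of all genes). In cKO IR vs cKO Ctrl the counts were 12 and 24 (54.55%, beside 45.6%). In cKO IR vs WT IR they were 19 and 24 (65.15%, beside 47.7%) and in the interaction 10 and 21 (46.97%, beside 30.2%). Named after their values were seen, the outermost interactions were 0.68 (SE 0.12, edgeR adjusted p 0.00026) for Magoh, a core protein of the exon junction complex, and −0.50 (SE 0.05, adjusted p 2.5e-07) for Ago2, the slicing Argonaute. Lsm8, whose protein takes the place of LSM1 in the nuclear ring, had an interaction of 0.19 that was not called (adjusted p 0.20).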

How the data were processed

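Counts per gene were deposited by the authors for 24 libraries. Per the study's methods reads were trimmed (Trimmomatic 0.39), aligned with HISAT to mm10 and counted with HTSeq, without normalization. Reads outside genes (no_feature lines, 2.97 to 6.80% of a library) were left out. The peak files hold positions, a fold enrichment −log10 p and q values and a score (10 times −log10 q, whole part) from MACS2, which the authors ran on each IP library and strand. The Input used as control for each library is not given in the sources used here. The members and gene lists were chosen with earlier results of these data known. Genes with at least 10 counts in 3 libraries were kept and fitted with edgeR 4.0.16 (R 4.3.3; TMM, quasi-likelihood F test, Benjamini-Hochberg adjustment), once over 12 Inputs and once over 24 libraries. SEs were derived from the F statistic. Values per library were chosen by the largest called changes (up to 6 members per Input comparison, 4 per IP comparison), paralog pairs and members with peaks in all groups. In the Inputs the choice by change was among called members whose libraries did not overlap between the groups. Lack of overlap is thus no support for members chosen in that way. Exon length is the union of a gene's exons in GENCODE vM21, on GRCm38. Alternatives were DESeq2 1.42.0, RLE scaling, other count filters, the 6 libraries of a contrast alone, a replicate block, leaving out each library, stricter peaks and, chosen after seeing the data, removal of length and GC trends. The steps were tested on simulated data.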

Additional observations from a re-analysis of the deposited data

Results flagged for a closer look

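The effect of irradiation differed between the genotypes for 30 of 44 members, by the interaction term of the Input fit (edgeR's quasi-likelihood test, adjusted p under 0.05), where 30.2% of all genes did. Values are the log2 change in cKO minus that in WT. The 11 positive values were those of Lsm7 (0.74), Lsm5 (0.63), Lsm3 (0.49), Lsm4 (0.49), Exosc8 (0.44), Lsm6 (0.42), Lsm1 (0.36), Exosc2 (0.34), Exosc3 (0.30), Cnot8 (0.29) and Exosc9 (0.26). The 19 negative values were those of Edc4 (−0.44), Pan3 (−0.41), Smg6 (−0.39), Cnot1 (−0.35), Pabpc1 (−0.35), Xrn1 (−0.31), Cnot3 (−0.30), Smg1 (−0.30), Dcp1a (−0.29), Ddx6 (−0.29), Upf2 (−0.28), Tob2 (−0.28), Cnot2 (−0.27), Cnot4 (−0.27), Upf1 (−0.27), Upf3b (−0.24), Dcp2 (−0.22), Xrn2 (−0.22) and Pabpc4 (−0.20). Exon length moved with these values, and its part was not tested. With the length trend removed 22 members were called, 11 in each direction. Of the 30 calls 26 held in every fit that left out a library. Those of Cnot4, Xrn2, Pabpc4 and Exosc2 were each lost in some of these fits. Ythdf2 counts went against the label in the cKO Inputs, so these values compare libraries by label.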

How the results depend on the processing

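The trend with exon length was removed as an alternative chosen after seeing the data. The change of IP over Input between cKO Ctrl and WT Ctrl was then called for 5 members. Signs turned in Input for Smg1 (−0.046 for WT IR vs WT Ctrl, 0.050 between the cKO groups, 0.088 between the IR groups, interaction 0.096), Xrn1 (0.034 between the IR groups, interaction 0.029), Lsm4 (−0.059 between the cKO groups), and, between the IR groups, Dcp2 (0.067) and Exosc3 (−0.045). They turned in IP over Input of WT Ctrl for Cnot4 (0.23, and 0.11 with the GC trend removed), Pan2 (0.031), Dcp2 (0.078), Ddx6 (0.058) and Tob2 (0.0068), and of cKO Ctrl for Cnot4 (0.26) and Smg6 (0.24). They turned in its change for Smg1 (cKO Ctrl vs WT Ctrl −0.014, IR vs Ctrl −0.21), Cnot1 (−0.031), Cnot6l (−0.0077) and Dcp2 (−0.043, IR vs Ctrl for all 3). The cause was not tested. With peaks of at least 4-fold enrichment, 5 members kept a consensus peak in WT Ctrl and 6 in cKO Ctrl, 2 under the label WT IR and 4 under the label cKO IR.

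Leaving out each library in turn gave between 14 and 26 called members for WT IR vs WT Ctrl, 28 to 29 for cKO IR vs cKO Ctrl, 1 to 6 for cKO Ctrl vs WT Ctrl, 31 to 36 between the IR groups and 27 to 33 for the interaction. Members enriched numbered 17 in WT Ctrl, 17 to 18 in cKO Ctrl and 19 to 20 in IR, changes of the ratio 7 to 10 (genotype) and 31 to 34 (irradiation), and members with a consensus peak 21 to 22, 15 to 18, 20 to 24 and 17 to 18 in WT Ctrl, labelled WT IR, cKO Ctrl and labelled cKO IR. Replicate numbers did not pair the samples: deviations of same-numbered Inputs correlated at −0.2035 to 0.1409. With a replicate block 17 members were called for irradiation in WT (Lsm3 lost) and 5 in cKO Ctrl vs WT Ctrl (Cnot2 and Pabpc1 lost, 0 higher). Over all values of single members, 7140 kept direction and side of the threshold, 191 lost and 127 gained a call and 22 turned. Normalization, count filter and DESeq2 moved no count of members by over 1.5 times.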
